A study of Mus musculus with 14 samples.

Results

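The enzymes that modify and crosslink collagen, with the chaperone that escorts it, were followed across mouse left ventricles that lacked or carried the small heat shock protein Hsp22 (gene Hspb8), with and without pressure overload. The set held Lox, Loxl1, Loxl2, Loxl3, Plod1, Plod2, Plod3, P4ha1, P4ha2 and Serpinh1. Every probe set whose annotation named exactly 1 of these symbols was taken, which gave 16 of 45101 probe sets. They covered 9 of the genes. Loxl2 had 0 such probe sets, and the 2 probe sets that named it with other symbols were not used here. Tests were limited to probe sets above a log2 value of 5.75 (the table's median) on 3 or more arrays, which 15 of the 16 met. The remaining one, the Lox probe set 1437903_at, lay below 5.75 on all 14 arrays (3.41 to 4.37). A gene was called by its tested probe set with the highest mean, which gave 9 of 12260 genes. Hybridisation differs from probe to probe, so no gene's level was set against another's.

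The arrays came from 4 groups of male C57BL/6 mice of unstated age. They were 4 arrays of Hsp22 knockout hearts after 3 days of transverse aortic constriction (TAC KO), 4 of wild-type hearts after the same surgery (TAC WT), 3 of unstressed knockout hearts (basal KO) and 3 of unstressed wild-type hearts (basal WT). TAC is an operation that constricts the aorta and so raises the load on the left ventricle. No sham-operated group was labelled, so surgery and pressure cannot be told apart. The labels do not say which part of Hspb8 was removed, nor that the arrays of a group came from separate animals, and p-values therefore measure only the spread between these samples.

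Fibrillar collagen is a triple helix that is finished in steps. In the endoplasmic reticulum (ER), prolyl 4-hydroxylases, whose catalytic alpha subunits are P4ha1 and P4ha2, hydroxylate prolines and so stabilise the helix. The lysyl hydroxylases Plod1, Plod2 and Plod3 hydroxylate lysines that later carry sugars or crosslinks, and Serpinh1 (also called Hsp47) is a chaperone that binds the folded procollagen. Outside the cell, the copper enzymes Lox, Loxl1 and Loxl3 oxidise lysines of collagen and elastin, which starts the covalent crosslinks. Crosslinked collagen is stiffer and harder to degrade, and in the heart it is laid down largely by fibroblasts.

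Median log2 values of the arrays ran from 5.7 to 5.8, and lower quartiles from 4.33 to 4.44 on the TAC arrays and from 4.51 to 4.58 on the basal arrays. Whether the authors normalized all arrays together is not stated, which bears on every difference between TAC and basal arrays. The array TAC WT 3 stood apart from its group: TAC WT arrays correlated with each other as low as 0.967, against 0.986 within TAC KO and 0.989 within the basal groups. By the array file names, the TAC and the basal arrays were run at separate times, so run and surgery cannot be told apart, and basal KO 3 was not run on the day of the other 5 basal arrays. Hspb8 probe set 1417013_at averaged 4.74 in TAC KO, 11.52 in TAC WT, 4.83 in basal KO and 11.68 in basal WT, which matches the labelled genotypes. Probe set 1417014_at gave 5.32, 10.61, 5.79 and 11.27 for the same groups, and 1456434_x_at, which may cross-hybridise, 8.48, 9.07, 8.7 and 9.78. In bulk tissue, fewer cells of a type and less RNA per cell cannot be told apart.

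Lox, Loxl1 and Loxl3 were higher after TAC in both genotypes, and Lox moved most of the set. In knockout hearts, 4 of the 9 genes rose after TAC (Lox, Loxl1, Loxl3 and Plod2), 1 fell (Plod1) and 4 did not pass (Plod3, P4ha1, P4ha2 and Serpinh1). Of all genes, 22.4% rose, 21.3% fell and 43.6% passed in either direction in this comparison. In wild-type hearts the same 4 genes, Lox, Loxl1, Loxl3 and Plod2, rose and 0 fell by limma (Plod1 was lower at an unadjusted p under 0.05), where 26.7% of all genes rose, 23.5% fell and 50.2% passed in either direction. The median log2 difference of the 9 genes was 0.33 in knockout and 0.38 in wild-type hearts, beside -0.02 and 0.02 over all genes. The call was a Benjamini-Hochberg adjusted p under 0.05 from limma over all tested probe sets. TAC arrays and basal arrays did not overlap for 6 of the 9 genes in knockout hearts (54.3% of all genes) and for 4 of 9 in wild-type hearts (49.9% of all genes).

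**Figure D1:**
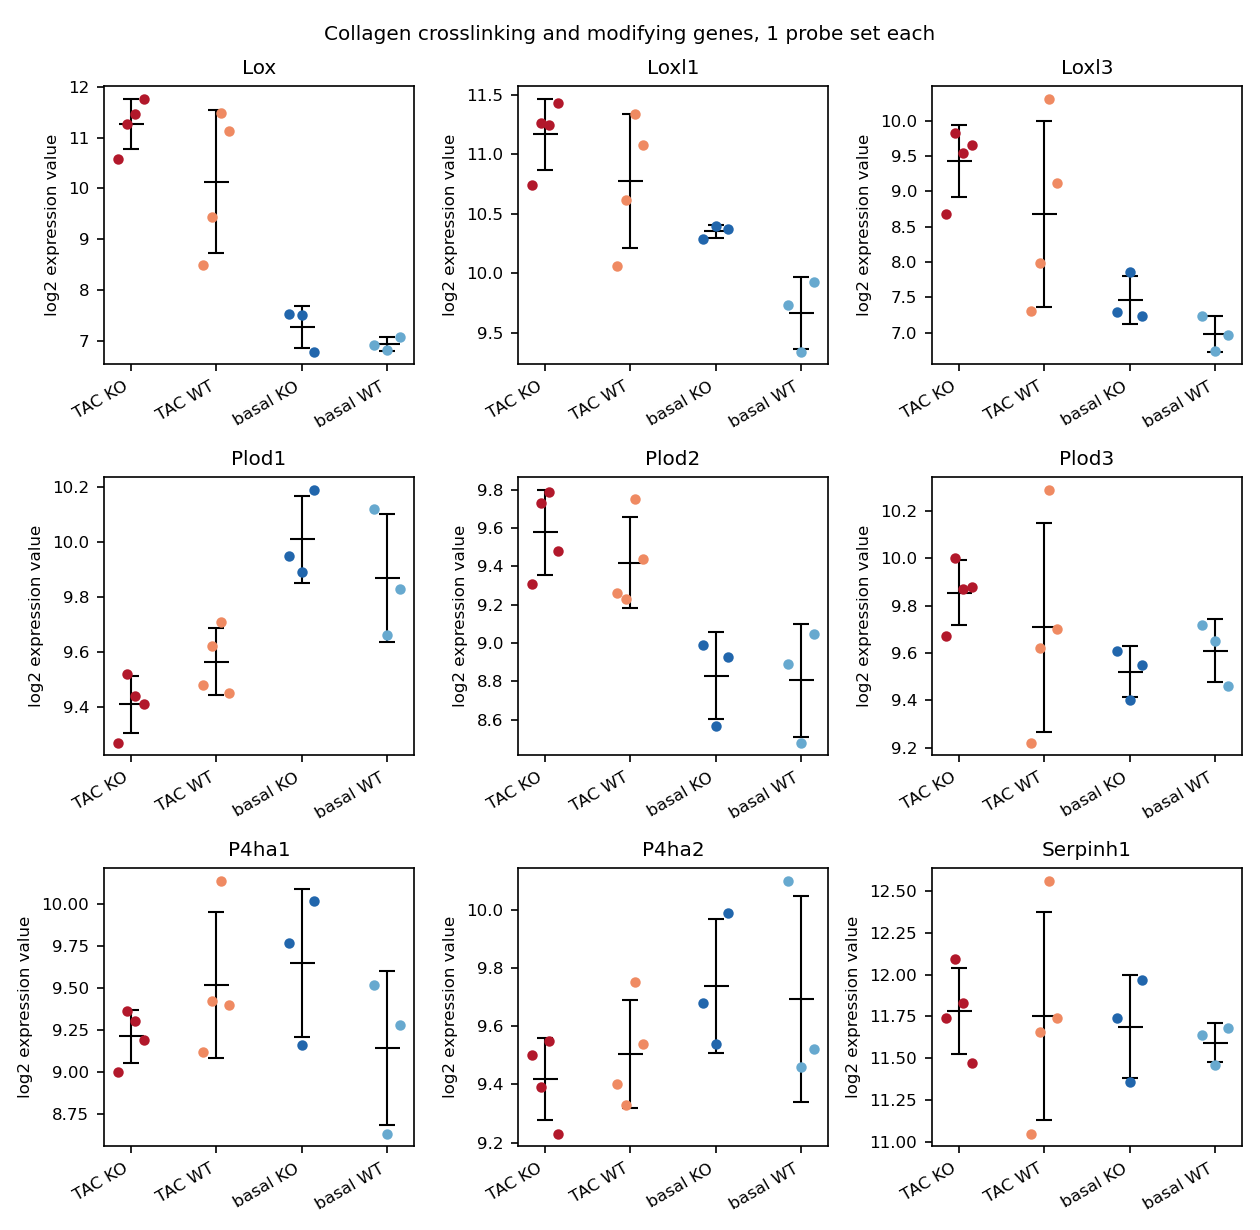
Log2 expression value of each gene (vertical axis, 1 panel and 1 probe set a gene, scales differ) on every array of the 4 groups (horizontal axis), with the group mean and SD as bars. Lox, Loxl1 and Loxl3 lie higher in both TAC groups, Plod1 lies lower in TAC KO than in basal KO, and TAC WT arrays spread widely for Lox (8.5 to 11.48) and Loxl3 (7.31 to 10.31).

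Lox encodes lysyl oxidase, the founding enzyme of its family. On probe set 1448228_at its log2 values were 10.58, 11.28, 11.46 and 11.76 in TAC KO, 8.5, 9.44, 11.48 and 11.13 in TAC WT, 7.52, 7.5 and 6.78 in basal KO, and 6.92, 6.81 and 7.08 in basal WT, in the order of the replicate numbers. All 8 TAC arrays lay above all 6 basal arrays. Within TAC WT, the arrays 1 and 2 sat nearer the basal arrays than the arrays 3 and 4 did. Lox was 16.0-fold higher in TAC KO than in basal KO (log2 difference 4.00, SE 0.55, adjusted p = 0.000274), the 6th largest log2 difference among 12260 genes. In wild-type hearts it was 9.19-fold higher (log2 difference 3.20, SE 0.55, adjusted p = 0.000626), the 11th largest. Without TAC WT 3, the wild-type difference was 2.75 (adjusted p = 0.00106). The other tested probe set, 1416121_at, gave log2 differences of 4.04 (knockout, adjusted p = 0.000217) and 3.36 (wild type, adjusted p = 0.000402).

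Loxl1, which in mice is known for the upkeep of elastic fibres, was already well above the filter in basal hearts. Probe set 1451978_at read 10.74, 11.26, 11.25 and 11.43 in TAC KO and 10.06, 10.62, 11.34 and 11.08 in TAC WT. The basal arrays read 10.29, 10.4 and 10.37 in basal KO and 9.73, 9.34 and 9.93 in basal WT. TAC arrays lay above the basal arrays of the same genotype throughout, though TAC WT 1 was below all 3 basal KO arrays. Loxl1 rose 1.76-fold in knockout hearts (log2 difference 0.82, SE 0.26, adjusted p = 0.0207) and 2.16-fold in wild-type hearts (1.11, SE 0.26, adjusted p = 0.00345). The knockout call was lost without basal KO 1 (adjusted p = 0.0615), basal KO 3 (0.0518) or TAC KO 4 (0.0572). The second probe set, 1436063_at, rose by 1.43 in knockout (adjusted p = 0.00132) and by 1.39 in wild-type hearts (adjusted p = 0.00114) on the log2 scale.

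Loxl3, a lysyl oxidase needed for palate and spine development in mice, followed Lox closely in the order of the TAC WT arrays. Its log2 values were 8.68, 9.82, 9.54 and 9.65 in TAC KO, 7.31, 7.99, 10.31 and 9.11 in TAC WT, 7.29, 7.86 and 7.24 in basal KO, and 7.24, 6.74 and 6.96 in basal WT. In TAC WT the array 1 was lowest and the array 3 highest for Lox, Loxl1 and Loxl3 alike, and TAC WT 1 exceeded the highest basal WT array by little for Loxl3. Loxl3 was 3.89-fold higher in TAC KO than in basal KO (log2 difference 1.96, SE 0.52, adjusted p = 0.00965). It was 3.25-fold higher in TAC WT than in basal WT (1.70, SE 0.52, adjusted p = 0.0165), and 1.16 higher on the log2 scale without TAC WT 3 (adjusted p = 0.0275). Leaving out basal WT 2 (adjusted p = 0.0586) or fitting the wild-type arrays alone (0.0612) ended the wild-type call.

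**Figure D2:**
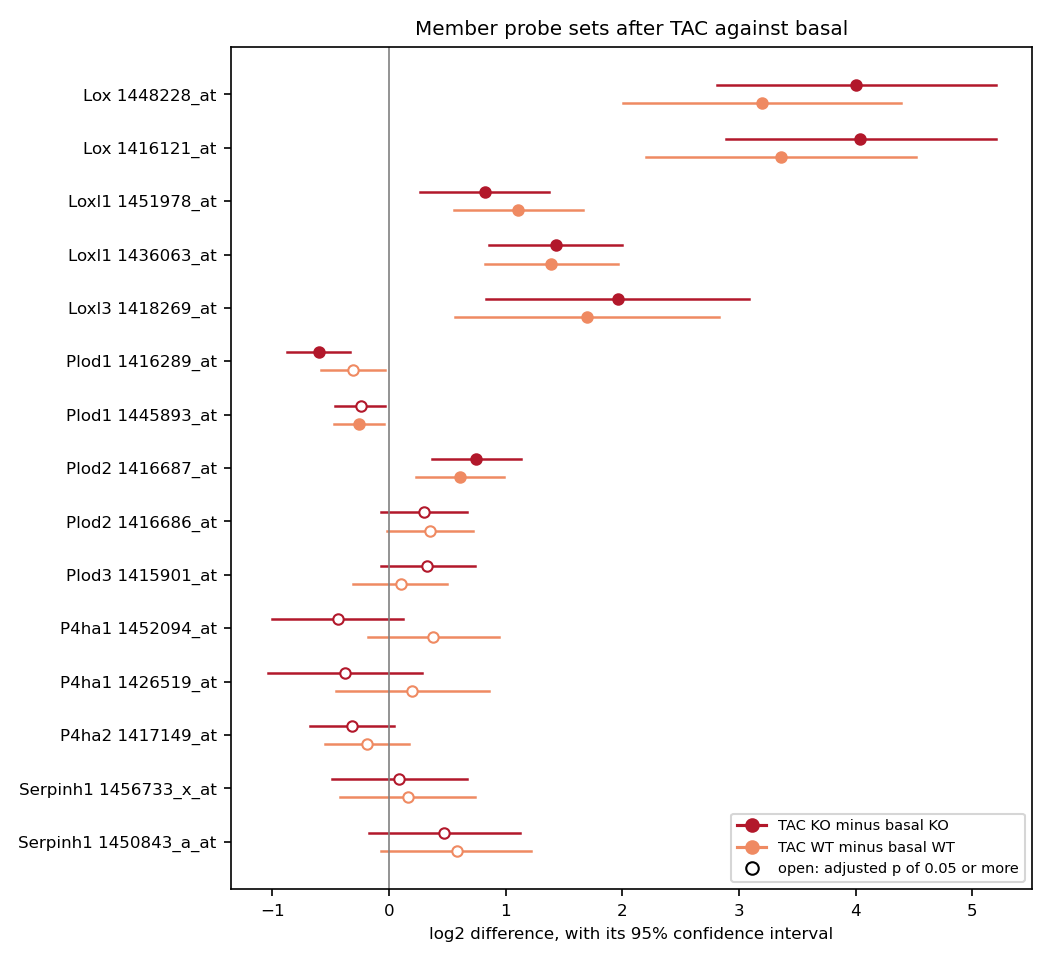
Log2 difference (horizontal axis) after TAC against basal for the 15 tested probe sets, knockout above wild type, with 95% confidence intervals; filled points passed the threshold. The 5 lysyl oxidase probe sets are filled in both genotypes, from 0.82 to 4.04 in knockout and from 1.11 to 3.36 in wild-type hearts, and all probe sets of P4ha1, P4ha2, Plod3 and Serpinh1 are open.

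The lysyl hydroxylases did not move together. Plod2, whose product hydroxylates the telopeptide lysines that enter the more stable hydroxylysine crosslinks, rose in both genotypes, and Plod1, which acts on lysines of the helix, fell in knockout hearts. Plod2 probe set 1416687_at read 9.31, 9.73, 9.79 and 9.48 in TAC KO, 9.26, 9.23, 9.75 and 9.44 in TAC WT, 8.99, 8.57 and 8.93 in basal KO, and 8.89, 8.48 and 9.05 in basal WT. All 8 TAC arrays were above all 6 basal arrays. The log2 difference was 0.75 in knockout hearts (1.68-fold, SE 0.18, adjusted p = 0.00498) and 0.61 in wild-type hearts (1.53-fold, SE 0.18, adjusted p = 0.0117). Leaving out basal WT 2 (adjusted p = 0.0687) or normalizing by quantiles (difference 0.42, adjusted p = 0.0529) ended the wild-type call. The second Plod2 probe set, 1416686_at, did not pass, with log2 differences of 0.30 in knockout (adjusted p = 0.166) and 0.35 in wild-type hearts (adjusted p = 0.105).

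Plod1 ran the other way. On probe set 1416289_at its log2 values were 9.27, 9.52, 9.44 and 9.41 in TAC KO, 9.48, 9.62, 9.71 and 9.45 in TAC WT, 9.95, 9.89 and 10.19 in basal KO, and 10.12, 9.66 and 9.83 in basal WT. Every TAC KO array was below every basal KO array, whereas TAC WT 3 overlapped the lowest basal WT array. Plod1 fell 1.52-fold in knockout hearts (log2 difference -0.60, SE 0.13, adjusted p = 0.00261). In wild-type hearts the difference was -0.31 (SE 0.13, adjusted p = 0.0578), and it passed without TAC WT 3 (-0.35, adjusted p = 0.0448), without basal WT 2 (-0.41), with quantile-normalized values (-0.48, adjusted p = 0.00468) and with the mean of the Plod1 probe sets (-0.28, adjusted p = 0.0295). It did not pass in 22 of 26 alternative settings (adjusted p up to 0.263). The dimmer probe set 1445893_at, near the filter, gave -0.24 in knockout (adjusted p = 0.0641) and -0.26 in wild-type hearts (adjusted p = 0.0454).

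Plod3 adds the sugars as well as the hydroxyl group to collagen lysines. Its values were 9.67, 10, 9.87 and 9.88 in TAC KO, 9.22, 9.62, 10.29 and 9.7 in TAC WT, 9.61, 9.4 and 9.55 in basal KO, and 9.72, 9.65 and 9.46 in basal WT. The TAC KO arrays lay above the basal KO arrays, by a log2 difference of 0.33 (95% interval -0.07 to 0.74, adjusted p = 0.162), and the TAC WT arrays spanned the basal WT arrays (0.10, interval -0.31 to 0.50). Plod3 did pass in knockout hearts without TAC WT 3 (adjusted p = 0.0484), with array weights (0.34, adjusted p = 0.0279) and when the knockout arrays were fitted alone (0.038). It did not pass in 23 of 26 alternative settings (adjusted p up to 0.344). TAC WT 3 enters this comparison only through the shared spread, and the difference without it stayed 0.33.

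The prolyl 4-hydroxylase alpha subunits and Serpinh1 did not pass in either genotype. P4ha1 probe set 1452094_at read 9, 9.36, 9.3 and 9.19 in TAC KO, 9.12, 9.42, 10.14 and 9.4 in TAC WT, 9.77, 9.16 and 10.02 in basal KO, and 9.52, 8.63 and 9.28 in basal WT. The TAC arrays overlapped the basal arrays in both genotypes, and the genotypes' log2 differences had opposite signs: -0.44 in knockout (95% interval -1.0 to 0.12) and 0.38 in wild-type hearts (-0.18 to 0.94). Probe set 1426519_at gave -0.38 and 0.20 in the same order. P4ha2 values were 9.5, 9.39, 9.55 and 9.23 in TAC KO, 9.4, 9.33, 9.75 and 9.54 in TAC WT, 9.68, 9.54 and 9.99 in basal KO, and 10.1, 9.46 and 9.52 in basal WT. They overlapped as well, with differences of -0.32 in knockout (-0.68 to 0.04) and -0.19 in wild-type hearts (-0.55 to 0.17).

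Serpinh1, the collagen chaperone, was measured by 2 probe sets. Probe set 1456733_x_at, which may cross-hybridise by its annotation class, read 11.74, 12.09, 11.83 and 11.47 in TAC KO, 11.05, 11.66, 12.56 and 11.74 in TAC WT, 11.74, 11.36 and 11.97 in basal KO, and 11.64, 11.46 and 11.68 in basal WT. Probe set 1450843_a_at read 11.7, 12.03, 11.87 and 11.75 in TAC KO, 11.1, 11.8, 12.8 and 11.95 in TAC WT, 11.36, 10.94 and 11.79 in basal KO, and 11.56, 11.11 and 11.34 in basal WT. On both, TAC WT 1 was the lowest and TAC WT 3 the highest of the TAC WT arrays, and TAC arrays overlapped basal arrays in both genotypes. The 2 probe sets gave log2 differences of 0.09 (95% interval -0.49 to 0.67) and 0.47 (-0.17 to 1.12) in knockout hearts, and of 0.16 (-0.42 to 0.74) and 0.58 (-0.07 to 1.22) in wild-type hearts. These intervals include no shift and reach up to 1.22 on the log2 scale, so a shift of Serpinh1 within them was neither shown nor excluded.

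Several genes of the set, P4ha1, P4ha2, Plod2 and Lox among them, are known targets of hypoxia-inducible factor. It binds short cores such as ACGTG, the only form searched here. RefSeq promoters of GRCm38.p6 were matched for 5 of the 10 genes (Plod1, Plod3, P4ha1, P4ha2 and Serpinh1), and the 250 bases upstream of each gene's start were searched on both strands. This form occurred in 4 of the 5, all but Plod1, against 16.6% of 32851 promoters of the same length. The form GCGTG, which the factor also binds, was not searched or counted, and the Plod1 promoter holds it. The 4 genes with ACGTG did not pass after TAC in either genotype. Plod1, which lacks it, fell in knockout hearts but did not pass in wild-type hearts either (limma, adjusted p = 0.0578). Lox, Loxl1, Loxl3 and Plod2, which rose, had no matched promoter, so a link between ACGTG and the response to TAC was not tested. Capitals mark the core, which reads CACGT where it lies on the opposite strand.
Plod3 promoter (chr5:136986769-136987018, plus strand): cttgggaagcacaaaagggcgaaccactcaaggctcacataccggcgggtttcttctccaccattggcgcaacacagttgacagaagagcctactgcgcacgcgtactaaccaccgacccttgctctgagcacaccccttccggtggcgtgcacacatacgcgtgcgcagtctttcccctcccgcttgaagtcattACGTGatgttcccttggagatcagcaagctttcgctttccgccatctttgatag
P4ha1 promoter (chr10:59323046-59323295, plus strand): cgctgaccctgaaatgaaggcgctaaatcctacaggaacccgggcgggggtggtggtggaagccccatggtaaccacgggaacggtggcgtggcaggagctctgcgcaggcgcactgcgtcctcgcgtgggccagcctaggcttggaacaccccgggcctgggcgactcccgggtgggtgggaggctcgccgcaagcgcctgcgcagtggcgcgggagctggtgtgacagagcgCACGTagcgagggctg
P4ha2 promoter (chr11:54100674-54100923, plus strand): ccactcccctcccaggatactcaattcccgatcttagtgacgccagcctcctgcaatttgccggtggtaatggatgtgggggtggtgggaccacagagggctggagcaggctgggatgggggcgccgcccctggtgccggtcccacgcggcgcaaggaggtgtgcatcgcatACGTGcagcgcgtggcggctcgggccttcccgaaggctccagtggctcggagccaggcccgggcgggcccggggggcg
Serpinh1 promoter (chr7:99353240-99353489, minus strand): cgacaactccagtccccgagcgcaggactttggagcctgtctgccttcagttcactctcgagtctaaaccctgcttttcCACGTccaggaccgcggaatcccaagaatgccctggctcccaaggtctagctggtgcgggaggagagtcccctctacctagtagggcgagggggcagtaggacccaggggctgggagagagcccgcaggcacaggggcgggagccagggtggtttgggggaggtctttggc
A match is a description of these letters and not of binding. Of the 6 other motifs searched, the GC box GGGCGG was also in 4 of the 5 (all but Plod3; 32.7% of all promoters), the SMAD site CAGAC in 2 (Plod1 and Serpinh1; 42.2%) and the TATA box TATAAA in 1 (Plod1; 12.4%). The activator protein 1 site TGANTCA, the TEAD site GGAATG and the heat shock unit GAANNTTC were found in 0 of the 5, against 6.75%, 12.6% and 6.69% of all promoters.

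Between the genotypes after TAC, no gene of the set passed, and the largest difference was that of Lox. Lox averaged 11.27 ± 0.50 in TAC KO and 10.14 ± 1.41 in TAC WT (SD, n = 4 each), with the SD in TAC WT set by the spread from 8.5 to 11.48. Of the 9 genes, 0 passed, and 1 (Lox) had an unadjusted p under 0.05; of all genes, 0.00816% passed (1 gene, Fbln5) and 7.82% had an unadjusted p under 0.05. That count leaves out the deleted gene itself: Hspb8 was lower in TAC KO on 1417013_at (log2 difference -6.78, adjusted p = 1.17e-08) and 1417014_at (-5.29, adjusted p = 1.37e-08), but its highest-mean probe set, by which the gene is counted, is 1456434_x_at (-0.59, adjusted p = 0.274). None of the 9 separated the groups, against 3.99% of all genes. The median log2 difference was 0.15, beside -0.02 over all genes.

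The log2 difference of Lox was 1.13 (95% interval 0.03 to 2.24, adjusted p = 0.60), that of Loxl3 0.74 (-0.30 to 1.79) and that of Loxl1 0.39 (-0.11 to 0.90). All 4 TAC KO arrays were above TAC WT 1 and TAC WT 2 for each of the 3 genes, and TAC WT 3 was above 3 of the 4 TAC KO arrays for Lox and Loxl1 and above all 4 for Loxl3. Without TAC WT 3 the differences were 1.58 for Lox (adjusted p = 0.134), 1.29 for Loxl3 (0.12) and 0.58 for Loxl1 (0.232). Weighting the arrays by their fit gave TAC WT 3 a weight of 0.222, TAC WT 2 one of 2.65 and TAC KO 3 one of 4.19. TAC WT 2 and TAC KO 3 thus counted most in the weighted means of their groups. With these weights all 3 genes were called: Lox at 1.71 (adjusted p = 0.0113), Loxl3 at 1.32 (0.0187) and Loxl1 at 0.56 (0.0438), where 11.9% of all genes passed and 5.37% rose.

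Without surgery, 0 of the 9 genes differed between the genotypes, 1 had an unadjusted p under 0.05, and 0% of all genes passed (5.51% had an unadjusted p under 0.05). Hspb8 is again counted by 1456434_x_at (adjusted p = 0.196), while it passed on 1417013_at (-6.84) and 1417014_at (-5.48, adjusted p = 5.97e-08 for both). The gene of the set with such a p was Loxl1, which averaged 10.35 ± 0.06 in basal KO and 9.67 ± 0.30 in basal WT (SD, n = 3 each). Its 3 basal KO arrays lay above its 3 basal WT arrays, as the arrays of the genotypes did not overlap for 13.6% of all genes in either direction. The log2 difference of Loxl1 was 0.69 (95% interval 0.10 to 1.27, adjusted p = 0.841), and 0.68 without basal KO 3, within the arrays of 1 day. The second Loxl1 probe set gave 0.37 (-0.24 to 0.98). P4ha1 followed with 0.51 (-0.09 to 1.11), and with 0.32 without basal KO 3. For Lox, Loxl3, Plod1, Plod2, Plod3, P4ha2 and Serpinh1 the differences ran from -0.09 to 0.48.

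The KO effect after TAC was also set against the KO effect in basal hearts. No gene of the set passed, 1 of 9 had an unadjusted p under 0.05, and 0% of all genes passed (7.44% had an unadjusted p under 0.05). The gene was P4ha1, with a difference of KO effects of -0.81 on the log2 scale (95% interval -1.61 to -0.02, adjusted p = 0.625). Its log2 KO effect was -0.31 after TAC and 0.51 in basal hearts. The second P4ha1 probe set gave a difference of -0.58 (-1.51 to 0.34), and the first gave -0.63 without basal KO 3. For Lox the difference of the KO effects was 0.80 (-0.88 to 2.49), an interval that includes both no difference and a large one.

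**Figure D3:**
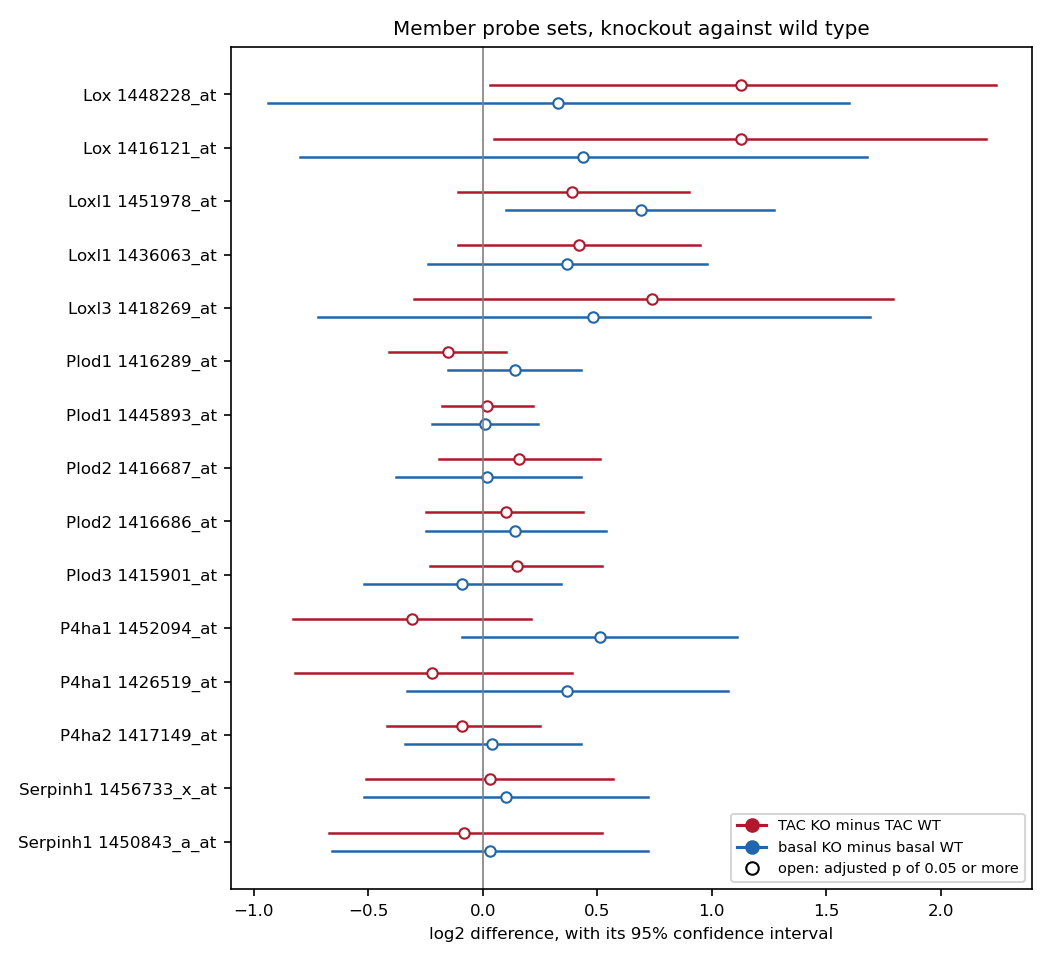
Log2 difference (horizontal axis) of knockout against wild type for the 15 tested probe sets, after TAC above basal, with 95% confidence intervals; open points did not pass. All points are open, and after TAC both Lox probe sets lie at 1.13 with intervals that start just above 0.

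Lysyl oxidases act with partners that hold them on their substrates. Fbln5 encodes fibulin-5, which tethers Loxl1 to elastin. It was the 1 gene called between TAC KO and TAC WT by its highest-mean probe set (Hspb8 passed on its other probe sets), with log2 values of 9.48, 9.61, 9.44 and 9.69 in TAC KO, 8.64, 8.65, 8.56 and 8.54 in TAC WT, 9.21, 9.17 and 8.78 in basal KO, and 9.06, 8.66 and 8.95 in basal WT. Each TAC KO array was above all other arrays, and each TAC WT array was below all other arrays. Fbln5 was higher in TAC KO than in TAC WT by 0.96 (SE 0.12, adjusted p = 0.00861), and by 0.94 without TAC WT 3 (adjusted p = 0.0114). The call was lost without TAC WT 2 (adjusted p = 0.0509) or TAC KO 2 (0.0571). The difference of the KO effects for Fbln5 was 0.79 (adjusted p = 0.414).

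Eln, the elastin that lysyl oxidases crosslink, read 9.05, 8.72, 8.99 and 9.35 in TAC KO and 8.04, 8.13, 7.65 and 8.28 in TAC WT. These arrays did not overlap. The difference was 1.0 (adjusted p = 0.0526), and Eln did not pass in 21 of 26 alternative settings (adjusted p up to 0.326). It did pass with array weights (0.87, adjusted p = 0.00253), with quantile-normalized values (1.06, adjusted p = 0.0295) and with the mean of the Eln probe sets (0.81, adjusted p = 0.0453). Leaving out TAC WT 3 also gave a call (0.88, adjusted p = 0.0279). So did leaving out TAC WT 4, where the difference was 1.09 (adjusted p = 0.0197).

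**Figure D4:**
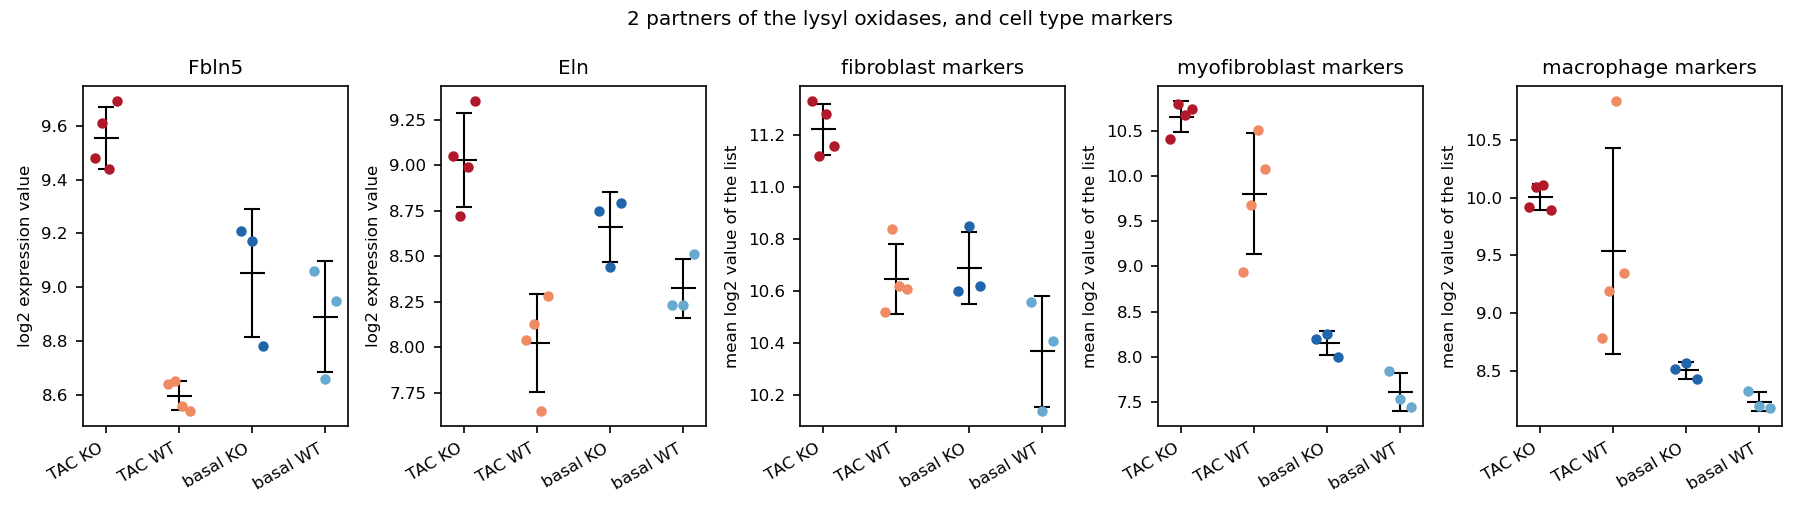
Log2 value of Fbln5 and Eln, and mean log2 value of 3 marker lists (vertical axes), on every array of the 4 groups (horizontal axis), with the group mean and SD as bars. Fbln5 and Eln separate TAC KO from TAC WT, and TAC WT arrays spread from 8.94 to 10.51 for myofibroblast markers and from 8.79 to 10.83 for macrophage markers.

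Most myofibroblast and macrophage markers rose after TAC, as the lysyl oxidases did, while fibroblast markers were mixed. Of 7 myofibroblast markers, 6 rose in knockout hearts and 5 rose and 1 (Comp) fell in wild-type hearts after TAC. Of 11 macrophage markers, 9 rose in each genotype. The mean log2 value of the myofibroblast list was 10.41, 10.79, 10.67 and 10.74 in TAC KO and 8.94, 9.68, 10.51 and 10.08 in TAC WT, so the TAC WT arrays stood in the same order as for Lox. It ran from 8 to 8.25 in basal KO and from 7.45 to 7.85 in basal WT. Summed levels of that list on the linear scale ran from 18000 to 25200 in TAC KO, 8950 to 24700 in TAC WT, 6070 to 6720 in basal KO and 4280 to 5520 in basal WT.

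For the macrophage list, the mean log2 value was 9.92, 10.09, 10.11 and 9.89 in TAC KO and 8.79, 9.19, 10.83 and 9.35 in TAC WT, highest in TAC WT 3. Its sums ran from 15600 to 19900 in TAC KO, 8800 to 28800 in TAC WT, 7910 to 9030 in basal KO and 5860 to 7800 in basal WT. Of 10 fibroblast markers, 5 rose and 1 (Pi16) fell in knockout hearts, and 5 rose and 4 (Dcn, Gsn, Dpt and Pi16) fell in wild-type hearts, where 2 fell without TAC WT 3. Leaving out that array also made 2 fall in knockout hearts (with Gsn). The sums of the fibroblast markers ran from 34200 to 40400 in TAC KO, 23800 to 29300 in TAC WT, 27000 to 30700 in basal KO and 23900 to 28200 in basal WT. Their mean log2 value in TAC WT was 10.52, 10.84, 10.62 and 10.61, highest in TAC WT 2 and so not in the order of Lox. Between TAC KO and TAC WT, 7 of 10 fibroblast markers (median log2 difference 0.54), 5 of 7 myofibroblast markers (0.71) and 1 of 11 macrophage markers (0.43) had an unadjusted p under 0.05, all higher in TAC KO, and 0 of them passed the adjusted threshold in limma. The part of these cell types in the values of the collagen enzymes was not tested.

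Few markers of other cell types rose. Of 8 endothelial markers, 3 fell in knockout hearts (Tie1, Vwf and Egfl7) and 4 in wild-type hearts (the same 3 and Pecam1), with sums of 3760 to 4530 in TAC KO, 3680 to 4800 in TAC WT, 5450 to 5610 in basal KO and 4800 to 5420 in basal WT. Of 8 smooth muscle and pericyte markers, Myh11 and Notch3 fell in each genotype and Des, not particular to these cells, rose in wild-type hearts. Their sums lay between 19500 and 23900 over all groups. Des averaged 13.21, 13.17, 12.84 and 12.73 in TAC KO, TAC WT, basal KO and basal WT, and Rgs5 12.29, 12.27, 12.97 and 12.85. Opposite shifts of single genes can thus offset each other in the sums. Without TAC WT 3, 2 of these 8 rose (Cnn1 and Tagln) and 4 fell (with Rgs5 and Kcnj8) in knockout hearts, and Des was not called in wild-type hearts. Of 9 ventricular cardiomyocyte markers, 1 fell in knockout hearts (Mybpc3) and 0 passed in wild-type hearts by limma (0 at an unadjusted p under 0.05), and without TAC WT 3 Tnni3 was called lower in knockout hearts as well. These ventricular markers summed to 125000 to 140000 in TAC KO, 110000 to 148000 in TAC WT, 139000 to 142000 in basal KO and 138000 to 143000 in basal WT. Atrial markers varied most, from sums of 8030 to 45800 within basal KO alone. Mybphl and Dbh fell in both genotypes and Sln in wild-type hearts. In basal KO Myl7 read 11.91, 9.11 and 13.56, and Dbh, at 8.2, 8.19 and 8.16, did not follow it. Myl7 read 12.75, 12.94 and 13.25 in basal WT and 10.96, 12.31, 11.28 and 5.24 in TAC WT. In TAC KO it read 10.81, 5.21, 9.05 and 11.5. The sums also hold Nppa, which averaged 14.16 in TAC KO, 14.06 in TAC WT, 13.39 in basal KO and 13.62 in basal WT. Whether atrial tissue in the samples differed between basal and TAC arrays was not tested.

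Many other genes of procollagen modification in the ER rose after TAC. Of 17 tested (P4hb, prolyl 3-hydroxylases, FK506-binding isomerases, sugar transferases and transport factors), 11 rose in knockout hearts (median log2 difference 0.59), and 9 rose and 1 (P3h4, not called without TAC WT 3) fell in wild-type hearts (0.29). The transport coat genes Sec24d and Sec23a rose by 0.77 and 0.71 in knockout hearts and by 0.71 and 0.94 in wild-type hearts on the log2 scale. The isomerase Fkbp14 rose by 1.09 in knockout and 1.31 in wild-type hearts. P4hb, the beta subunit that pairs with P4ha1 and P4ha2 and was picked here after its values were seen, rose by 0.97 in knockout (adjusted p = 0.00327) and 0.71 in wild-type hearts (adjusted p = 0.0143).

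The substrates rose too; Col1a1, Col1a2 and Postn stand in the marker lists as well. Of 17 collagen and elastin genes, 12 rose in knockout hearts (median 0.84) and 9 in wild-type hearts (0.96) by limma. Col8a1 rose by 3.12 in knockout and 3.56 in wild-type hearts, Col5a2 by 2.74 and 2.20, and Col3a1 by 1.83 and 2.33. Of 12 genes for procollagen processing and partners outside the cell, 6 rose and 2 fell in each genotype. Postn, the matricellular periostin, rose by 2.83 in knockout and 2.91 in wild-type hearts, and Pcolce, an enhancer of procollagen cleavage, rose by 1.12 and 1.27. The 2 that fell were Tnxb, the tenascin-X gene (-2.55 in knockout, -2.36 in wild-type hearts), and Fmod, the fibromodulin gene (-0.93 and -1.41). Loxl4, a further lysyl oxidase outside the set, was one of the 12: its log2 difference was 0.47 in knockout hearts (adjusted p = 0.203) and 0.90 in wild-type hearts (adjusted p = 0.0208), where its basal WT mean of 5.58 lay below 5.75. Without TAC WT 3, Loxl4 was not called, and 3 of these 12 rose in wild-type hearts (Postn, Pcolce and Fn1), where 23.7% of all genes rose and 42.8% passed in either direction.

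**Figure D5:**
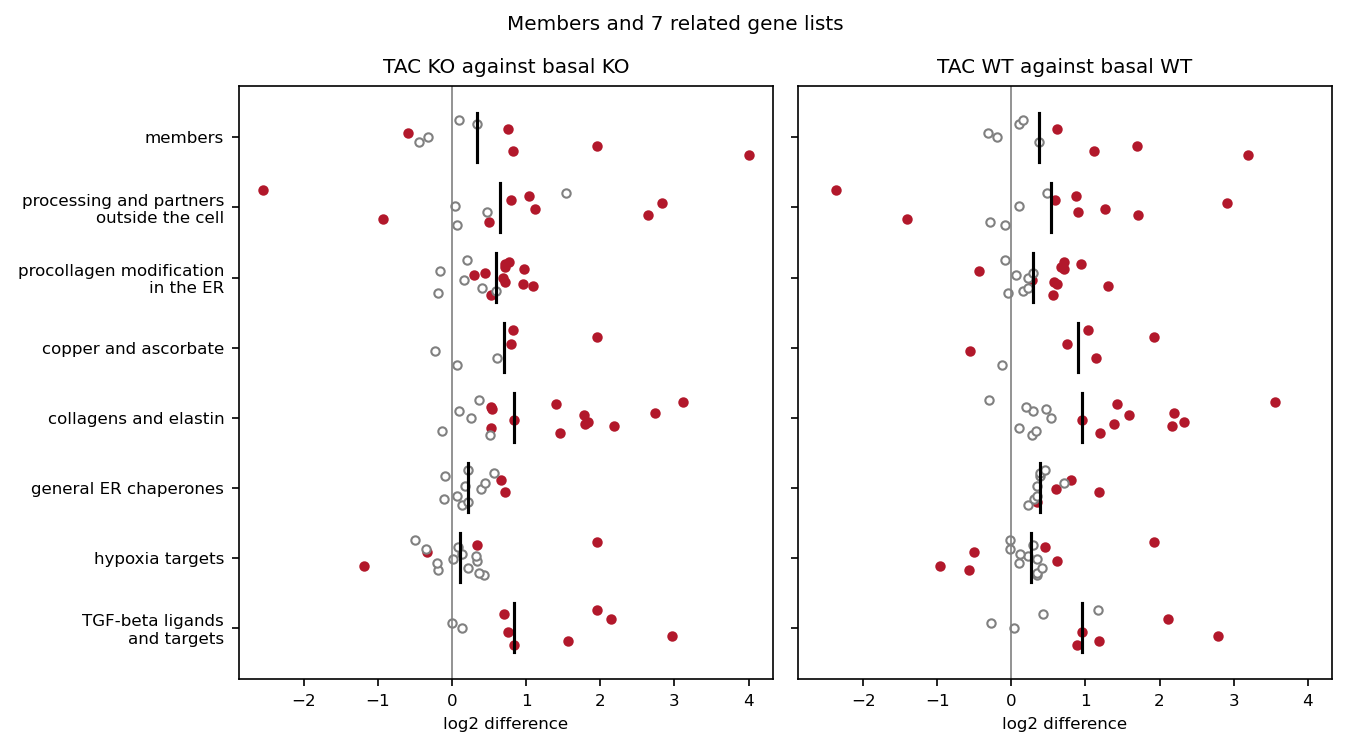
Log2 difference (horizontal axis) after TAC against basal for the collagen-modifying genes (members) and the genes of 7 related lists (rows), in knockout (left) and wild-type hearts (right); filled points passed and the black bar is the median. Medians of the collagen and elastin list lie at 0.84 in knockout and 0.96 in wild-type hearts, those of the hypoxia targets at 0.11 and 0.26.

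Cofactor supply and general lists gave mixed counts. Among all genes, 22.4% rose and 21.3% fell in knockout hearts, and 26.7% rose and 23.5% fell in wild-type hearts. Of 6 genes for copper and ascorbate, 3 rose in knockout hearts, and 4 rose and 1 fell (the copper exporter Atp7b) in wild-type hearts. Slc31a1, the copper importer that supplies the lysyl oxidases' metal, rose by 0.82 in knockout and 1.04 in wild-type hearts. Slc23a2, which carries the ascorbate that prolyl and lysyl hydroxylases need, rose by 0.80 and 0.75, and Slc2a1, which also takes up oxidised ascorbate and is listed among the hypoxia targets too, by 1.96 and 1.93. The exporter Atp7a rose in wild-type hearts (1.14). Of 12 general ER chaperones, 2 rose in knockout hearts (Hsp90b1 and Pdia3) and 4 in wild-type hearts (with Hspa5 and Canx), or 2 without TAC WT 3.

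Of 16 hypoxia targets, 2 rose (Slc2a1 and Pgk1) and 2 fell (Egln1 and Ndrg1) in knockout hearts, beside 22.4% and 21.3% of all genes. In wild-type hearts 3 rose (Slc2a1, Ero1a and Pfkfb3) and 3 fell (Egln1, Ndrg1 and Bnip3), beside 26.7% and 23.5% of all genes. Leaving out TAC WT 3 ended the call of Pfkfb3, and Vegfa was then called lower in knockout hearts. Of 9 genes of the TGF-beta pathway, which is known to induce Lox, 7 rose in knockout and 5 in wild-type hearts, where Tgfb1 was called lower without TAC WT 3. The ligand Tgfb2 rose by 2.15 in knockout and 2.11 in wild-type hearts. Ltbp2, a latent TGF-beta binding protein by name only, rose by 2.97 and 2.79. The basal WT mean of Ltbp2, 5.71, lay below 5.75. Between TAC KO and TAC WT, 1 gene of the 7 lists passed, Fbln5, while 10 of the 17 collagen and elastin genes had an unadjusted p under 0.05 (median log2 difference 0.66). Without TAC WT 3, Fbln5, Fn1, Eln, Col1a2 and Col18a1 of these lists passed and were higher in TAC KO, where 0.653% of all genes did and 0.759% passed in either direction, as were the macrophage markers Adgre1, C1qb, Cd68, Lgals3 and Lyz2.

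Lox had the widest range of group means in the set, 4.33 on the log2 scale. The 5 other genes whose log2 values followed it most closely over the 14 arrays were S100a6 (Pearson r 0.989), Col5a2 (0.988), Srpx2 (0.988), Fstl1 (0.987) and Rtn4 (0.986). Basal and TAC arrays form separate clusters, so these values mostly restate the step between them. Within the 8 TAC arrays alone r was 0.965 for S100a6, 0.961 for Col5a2, 0.972 for Srpx2, 0.954 for Fstl1 and 0.93 for Rtn4. The arrays of each value share RNA sample, run and normalization.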

How the data were processed

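Left ventricular RNA was extracted with Trizol and biotin-labelled, per the labels. The deposited log2 expression values per probe set were made by the authors with RMA, per the submitters' processing notes; the version: not given in the sources used here. All 14 arrays were grouped by the labels' titles, and 0 pairs of arrays were identical. Of 45101 probe sets, 64 control probe sets were left out of tests, and 34945 carried 1 symbol, 932 several and 9224 none; 34741 matched RefSeq. A filter (above 5.75 in at least 3 arrays) kept 24525. A model with 4 groups was fitted to all 14 arrays with limma 3.58.1 in R 4.3.3 (eBayes with a constant prior, 10 residual and 3.73 prior degrees of freedom, Benjamini-Hochberg over the kept probe sets, threshold 0.05) and was tested on simulated data. The number of arrays limits the precision. The set, its related lists and the markers were chosen with earlier results of these data known. Named besides the set were Hspb8, up to 4 genes of a list with the smallest p in each TAC comparison and up to 2 in each genotype comparison, and the 5 genes most like Lox; P4hb, further list members of small counts and genes passing without TAC WT 3 were named after their values were seen. Alternatives were no filter, a stricter filter (7.7), 1 probe set per gene, the mean of probe sets, quantile normalization and median centring. Others were separate fits to each comparison's arrays, eBayes with a trend (also robust), array weights and the replicate block. The last were a fold of at least 1.5 and leaving out each array. Counts of lists without TAC WT 3 were added after seeing the data.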

Additional observations from a re-analysis of the deposited data

Results flagged for a closer look

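On the Lox probe set 1416121_at, the array TAC KO 1 read 10.72 and lay apart from the other TAC KO arrays, which read 11.46 to 11.49. The gap was 0.961 of the group's range, above Dixon's 95% critical value for 4 samples. It was 1 of 30 such groups of 4 arrays examined over the tested probe sets, and chance marks about 1 in 20. TAC KO 1 was also the lowest TAC KO array on Lox probe set 1448228_at, at 10.58, and the cause was not tested.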

How the results depend on the processing

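The count of called genes among the 9 was 5 in TAC KO against basal KO (4 to 6 on leaving out single arrays), 4 in TAC WT against basal WT (3 to 5), and 0 in TAC KO against TAC WT, in basal KO against basal WT and in the difference of the KO effects (0 on leaving out each array). Array weights called 3 in TAC KO against TAC WT; the cause was not tested. With the replicate number as a block the counts were 5, 4, 0, 0 and 0, so the block changed no count. Deviations of same-numbered TAC KO and TAC WT arrays correlated at 0.58, -0.02, -0.08 and 0.50, and those of basal KO and basal WT arrays at -0.04, 0.07 and -0.01. The TAC arrays numbered 1 and those numbered 4 thus resembled each other across genotypes, and the cause was not tested. The block spans TAC and basal arrays, so it does not test pairing within TAC. The stricter filter tests fewer probe sets.

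Signs turned only for differences that were not called. In TAC KO against basal KO, Serpinh1 was -0.01 after quantile normalization and -0.07 to 0.23 over left-out arrays. In TAC WT against basal WT, Plod3 was -0.09 after quantile normalization and -0.10 to 0.26 over left-out arrays, P4ha2 -0.30 to 0.02 and Serpinh1 -0.11 to 0.39. In TAC KO against TAC WT, P4ha2 was 0.10 with array weights, and Serpinh1 was -0.02 with the mean of probe sets, -0.01 with median centring and -0.20 to 0.30 over left-out arrays, with Plod3 at -0.02 to 0.34. In basal KO against basal WT, Plod2 was -0.01 after quantile normalization, -0.01 with array weights, -0.06 without basal KO 1, -0.03 without basal KO 3 and -0.14 to 0.15 over all left-out arrays, P4ha2 -0.08 to 0.25 and Serpinh1 -0.04 to 0.26. For the difference of the KO effects, array weights gave 0.04 for P4ha2 and 0.15 for Serpinh1, and left-out arrays gave -0.20 to 0.80 for Loxl3, -0.33 to 0.00 for P4ha2 and -0.30 to 0.20 for Serpinh1. Causes were not tested. Of all values recomputed for the genes of the set, Fbln5 and Eln, 1160 kept their side and direction, 15 newly passed, 9 lost their call and 29 turned.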
